A study of Mus musculus with 36 samples.

Results

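Gene expression in hypothalamic tissue that the labels call SCN-enriched (SCN, suprachiasmatic nucleus) was compared between the dark and the light phase in mice on a high-fat diet. The 6 libraries compared were chosen by their diet and time labels alone, 3 from zeitgeber time (ZT) 16 and 3 from ZT 4, out of 36 libraries in all. The mice were adult C57BL/6J animals sampled after 10 weeks of high-fat diet, and the same 2 times after 10 weeks of normal chow gave a second set of 6 libraries. The sample labels give these times as numbered time points and the column headers give them as ZT, the hours since lights on, so on the usual light cycle ZT 16 lies in the dark, when mice are active, and ZT 4 in the light, when they mostly rest. The sex of the mice, the lighting schedule, the make-up of the diets and the number of animals behind a library are not given in the sources used here, so p-values measure the spread between libraries, which may be technical. All levels below are FPKM rescaled to sum to 1000000 in each library, and log2 changes are ZT 16 minus ZT 4 on the log2(level + 1) scale, which understates the change of genes with low levels.

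The SCN is a small paired nucleus above the optic chiasm that holds the central circadian clock of mammals. Its neurons keep time through a transcriptional loop in which BMAL1 (the product of Arntl) and CLOCK drive the Per and Cry genes, whose proteins then repress them. Timing is passed on by neuropeptides such as vasopressin and VIP, through hormones such as the glucocorticoids, which in nocturnal rodents are highest around the onset of the dark, and through feeding, which in mice falls mostly in the dark. Astrocytes and the vessels of the blood-brain barrier supply these neurons with metabolites and lipids.

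Deposited values summed to between 339285 and 390264 FPKM in the 6 libraries, with 18550 to 19085 rows above 0, and the number of reads behind them is not given in the sources used here. Pearson correlations across genes, which are not independent replicates, ran from 0.945 to 0.972 between libraries of the same time and from 0.944 to 0.980 between the times. SCN transcripts were present but mostly low: Vip ranged from 21.4 to 42.4, Rgs16 from 22.9 to 76.2, Six6 from 1.89 to 7.44 and Lhx1 from 1.30 to 4.73 over the 6 libraries. Oxt, a peptide of other hypothalamic nuclei, ranged from 815 to 2556, so levels cannot be assigned to the SCN alone. A library stood apart at each time. The third ZT 16 library summed to 2004 over 15 marker genes of thalamus, cortex and striatum, against 260.1 and 430.0 in the other ZT 16 libraries and 300.0 to 460.3 at ZT 4. Its level of Ppp1r1b, a marker of striatal neurons, was 845, against 30.3 and 117 in the other ZT 16 libraries and 39.9 to 122 at ZT 4. The third ZT 4 library summed to 9153 over 15 marker genes of meninges and fibroblasts, against 2538 or less in the other ZT 4 libraries and 899 to 2998 at ZT 16. It also held the highest levels of Avp (4301), Pmch (843) and Pomc (293) among the 6. Results are therefore also given without both replicate 3 libraries where that changed them.

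Between ZT 16 and ZT 4 under high-fat diet, 1 transcript passed the test. Mfsd2a rose about 2-fold, and the next in rank were Gpt2, Kirrel2 and Klf15 on the higher side and Chga and Fabp7 on the lower side, none of which passed. By limma, 1 of 15106 genes tested was called at a Benjamini-Hochberg adjusted p under 0.05 (0.00662%), with 1 higher and 0 lower. At an unadjusted p under 0.05 there were 1851 genes (12.3%), 636 genes with higher values at ZT 16 (4.21%) and 1215 with lower values (8.04%), and the median log2 change over all genes tested was -0.03. The 3 libraries of each time did not overlap for 1148 genes that were higher at ZT 16 (7.6%) and 2176 that were lower (14.4%), 22% together. Of all genes tested, 45.0% had a positive log2 change. These shares are the background for the lists below. Those at an unadjusted p under 0.05 came to 2.46% higher and 17.1% lower with values as deposited, to 6.77% and 5.77% with median-of-ratios scaling, and to 1.93% and 2.73% without both replicate 3 libraries. In simulated data of the same size, the test recovered 79 of 100 genes with a log2 change of 1 and 19 of 100 with a log2 change of 0.5. Smaller changes are thus mostly below what it can call. The planted changes ease the Benjamini-Hochberg cutoff for one another, where the data had 1 call, so recovery here may be lower. Kirrel2 and Fam107a, with log2 changes of 1.72 and 1.07, were not called. The count depends on the estimate of the spread: with all 36 libraries of both diets in the fit, 152 genes were called, 41 higher and 111 lower, and with the 6 libraries alone 2 were called, of which Mfsd2a was not one.

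Mfsd2a encodes the sodium-dependent transporter that carries docosahexaenoic acid, as lysophosphatidylcholine, across the endothelium of the blood-brain barrier. Its gene lies on chromosome 4 (122946850 to 122961188, minus strand, GRCm38). The ZT 16 libraries had 43.6, 41.6 and 34.2, against 21.2, 20.2 and 18.4 in the ZT 4 libraries. All 3 ZT 16 libraries lay above all 3 ZT 4 libraries, and the means were 39.8 ± 4.93 and 19.9 ± 1.38 (SD, n = 3 each). The log2 change was 0.96 ± 0.11 (SE; limma adjusted p = 0.00742). Over the day the mean was 21.9 at ZT 0, 19.9 at ZT 4, 23.8 at ZT 8, 33.9 at ZT 12, 39.8 at ZT 16 and 35.3 at ZT 20, so the pair of times compared held its lowest and its highest mean. For the vessel wall as a whole, the 19 endothelial and mural markers had a median log2 change of -0.21, with 0 higher and 2 lower at an unadjusted p under 0.05, and they summed to 445, 454 and 492 at ZT 16, against 441, 578 and 655 at ZT 4. Under chow the same 19 had a median of 0.40, with 5 higher and 1 lower at that p, and their part in the values of Mfsd2a was not tested. Without both replicate 3 libraries the log2 change of Mfsd2a was 1.01 (limma adjusted p = 0.0375). The call was lost when the first or the second ZT 16 library, or the second or the third ZT 4 library, was left out, with log2 changes of 0.89 to 1.06 over the 6 libraries left out in turn and adjusted p from 0.00430 to 0.0946.

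The promoters of the gene of smallest p in each direction, Mfsd2a and Chga, are shown so that the DNA before their start sites can be read beside their levels, and those of Klf15 and Fam107a were added, after their values were seen, because they hold clock or glucocorticoid receptor motifs. Each is the 250 bases before a transcription start in the RefSeq annotation of GRCm38.p6, written 5′ to 3′ on the gene's own strand, at chr4:122961189-122961438 (minus strand) for Mfsd2a, chr12:102554691-102554940 (plus strand) for Chga, chr6:90462326-90462575 (plus strand) for Klf15 and chr14:8309780-8310029 (minus strand) for a start site of Fam107a. Capitals mark every match, on either strand, to the E-box of the clock activators (CACGTG), the D-box (TTATGNAA), the ROR element (TAGGTCA), the cyclic AMP element (TGACGTCA), the glucocorticoid receptor element (GNACA and TGTNC with 3 bases between), the heat shock element (GAA, TTC and GAA with 2 bases between each), the ER stress element (CCAAT and CCACG with 9 bases between) and the CCAAT box (CCAAT), which is also the start of the ER stress element.
Mfsd2a: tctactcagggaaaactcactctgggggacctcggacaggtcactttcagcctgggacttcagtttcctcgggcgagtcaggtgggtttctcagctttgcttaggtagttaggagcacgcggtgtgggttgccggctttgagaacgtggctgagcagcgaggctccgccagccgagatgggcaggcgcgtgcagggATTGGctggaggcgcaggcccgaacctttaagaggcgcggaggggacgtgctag
Chga: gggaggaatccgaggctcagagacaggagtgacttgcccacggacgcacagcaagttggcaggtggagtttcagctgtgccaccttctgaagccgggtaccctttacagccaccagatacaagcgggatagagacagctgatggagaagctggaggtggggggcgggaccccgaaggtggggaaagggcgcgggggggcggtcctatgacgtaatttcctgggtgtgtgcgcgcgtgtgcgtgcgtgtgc
Klf15: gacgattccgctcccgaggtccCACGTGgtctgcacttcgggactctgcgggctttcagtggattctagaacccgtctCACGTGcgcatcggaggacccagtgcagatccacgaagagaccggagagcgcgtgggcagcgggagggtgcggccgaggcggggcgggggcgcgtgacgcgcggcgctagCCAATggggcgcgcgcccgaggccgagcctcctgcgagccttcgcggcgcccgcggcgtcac
Fam107a: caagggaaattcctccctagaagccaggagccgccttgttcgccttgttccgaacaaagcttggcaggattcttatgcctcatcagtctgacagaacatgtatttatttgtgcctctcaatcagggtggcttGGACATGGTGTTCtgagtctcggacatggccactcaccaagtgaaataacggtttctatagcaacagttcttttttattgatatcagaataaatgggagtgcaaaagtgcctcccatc

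Mfsd2a held a CCAAT box on its reverse strand, a motif present in 33.8% of 32851 RefSeq promoters of this length. Chga held no exact match to any of the motifs. Its sequence holds TGACGTAA, close to the cyclic AMP element TGACGTCA, and near matches were not searched for. Klf15 held 2 E-boxes and a CCAAT box, where 6.02% of all promoters held an E-box, and the glucocorticoid receptor element of Fam107a was present in 0.387%. Both were shown because they hold these motifs, so the shares are background and measure no excess. The promoter of another start site of Fam107a, at chr14:8317608-8317857, held none of the motifs. Among the 24 leading genes described next, 21 had a promoter in the table, and an E-box was found in Klf15 and Cgref1, a ROR element in Fabp7 and a glucocorticoid receptor element in Fam107a. These are matches of letters in a short window and not measured binding sites.

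The 12 genes of smallest p with higher levels at ZT 16 were Mfsd2a and 11 genes that did not pass. Gpt2, the mitochondrial alanine aminotransferase, had 54.0, 61.7 and 58.1 at ZT 16, against 35.7, 35.4 and 37.4 at ZT 4, log2 change 0.66 ± 0.11 (SE, limma adjusted p = 0.0718). Kirrel2, an adhesion protein related to nephrin, had 5.70, 6.96 and 10.5 at ZT 16, against 2.01, 1.89 and 0.953 at ZT 4. Its fold of 4.77 was the largest of the 24 leading genes, at low levels, with log2 change 1.72 ± 0.28 (SE, limma adjusted p = 0.0718). Klf15, a zinc finger transcription factor induced by glucocorticoids that controls amino acid breakdown, had 32.7, 34.3 and 29.0 at ZT 16, against 21.6, 21.1 and 24.04 at ZT 4. The log2 change of 0.50 ± 0.09 (SE) had a limma adjusted p of 0.0940.

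The other 8 genes of this side differ in what they are known to do. Fam107a, a stress-induced actin-binding protein, had 340.0, 347 and 385 at ZT 16, against 207, 163 and 143 at ZT 4, log2 change 1.07 ± 0.21 (SE, limma adjusted p = 0.112). Paqr8, a membrane progesterone receptor, had 141, 172 and 156 at ZT 16, against 97.4, 72.0 and 76.1 at ZT 4 (limma adjusted p = 0.0940). Fgfr3, a fibroblast growth factor receptor of astrocytes, had 147, 160.5 and 133 at ZT 16, against 107, 84.0 and 79.6 at ZT 4 (limma adjusted p = 0.108). Sdc4, a heparan sulfate proteoglycan of the cell surface, averaged 155 ± 6.58 at ZT 16 and 88.8 ± 20.2 at ZT 4, and Ttyh1, a membrane protein of the tweety family, 565 ± 9.93 and 395 ± 20.9 (SD, n = 3 each). Gas2l1, which links actin and microtubules, St3gal4, a sialyltransferase, and Cml5, of the camello-like acetyltransferase family, had log2 changes of 0.46, 0.51 and 0.76. In all 12 the lowest ZT 16 library lay above the highest ZT 4 library, a property that the choice by small p favours, and 10 of the 12 had both their highest mean of the day at ZT 16 and their lowest at ZT 4.

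**Figure D1:**
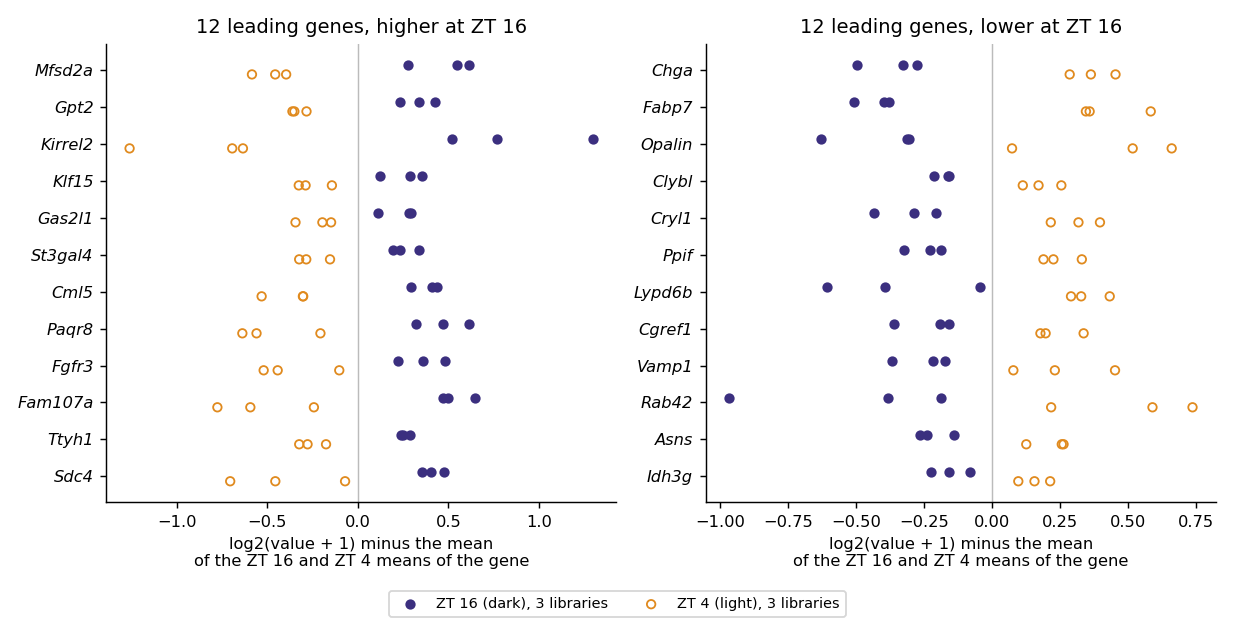
Levels of the 12 genes of smallest p in each direction, by library, as log2(level + 1) minus the midpoint of the ZT 16 and ZT 4 means of the gene. Filled points are the 3 ZT 16 libraries and open points the 3 ZT 4 libraries of the high-fat diet, and within each of the 24 genes the points of the 2 times do not overlap. Of these genes, Mfsd2a passed the test.

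On the lower side 0 genes passed (smallest limma adjusted p = 0.0718, with 1215 at an unadjusted p under 0.05). Chga, the granin chromogranin A of dense-core secretory vesicles, lies on chromosome 12 (102554969 to 102565028, plus strand, GRCm38). It had 213, 206 and 183 at ZT 16, against 315, 332 and 354 at ZT 4, log2 change -0.73 ± 0.12 (SE, limma adjusted p = 0.0718). Its mean was lowest at ZT 16 (200.4) and highest at ZT 4 (333), with 271 to 304 at the other 4 times. Fabp7, the brain fatty acid binding protein of astrocytes and neural precursors, had 119.8, 109.4 and 118.2 at ZT 16, against 234, 198 and 200.3 at ZT 4. Its log2 change was -0.86 ± 0.15 (SE; limma adjusted p = 0.0940), and its daily course ran from 234 at ZT 0 to 107 at ZT 12, so the 2 times compared did not hold its extremes.

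The other 10 genes of this side did not pass either. Opalin, a membrane protein of oligodendrocytes, had 46.1, 57.5 and 57.8 at ZT 16, against 75.5, 113.8 and 103 at ZT 4 (limma adjusted p = 0.113). Vamp1, a synaptic vesicle SNARE, averaged 157 ± 10.8 at ZT 16 and 225 ± 29.6 at ZT 4 (SD, n = 3 each). Among the enzymes, Clybl, a citramalyl-CoA lyase, had a log2 change of -0.36, Cryl1, an L-gulonate dehydrogenase, -0.62, Asns, asparagine synthetase, -0.43, and Idh3g, a subunit of isocitrate dehydrogenase, -0.31. Ppif, the cyclophilin of the mitochondrial permeability pore, had -0.49, and Lypd6b of the Ly6 family -0.70. Cgref1, a secreted protein with EF hands, had -0.47, and Rab42, a small GTPase at low levels, -1.03. Adjusted p-values of these 8 and of Vamp1 ran from 0.116 to 0.127, and 11 of the 12 lower genes had their highest mean at ZT 4 and their lowest at ZT 16.

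**Figure D2:**
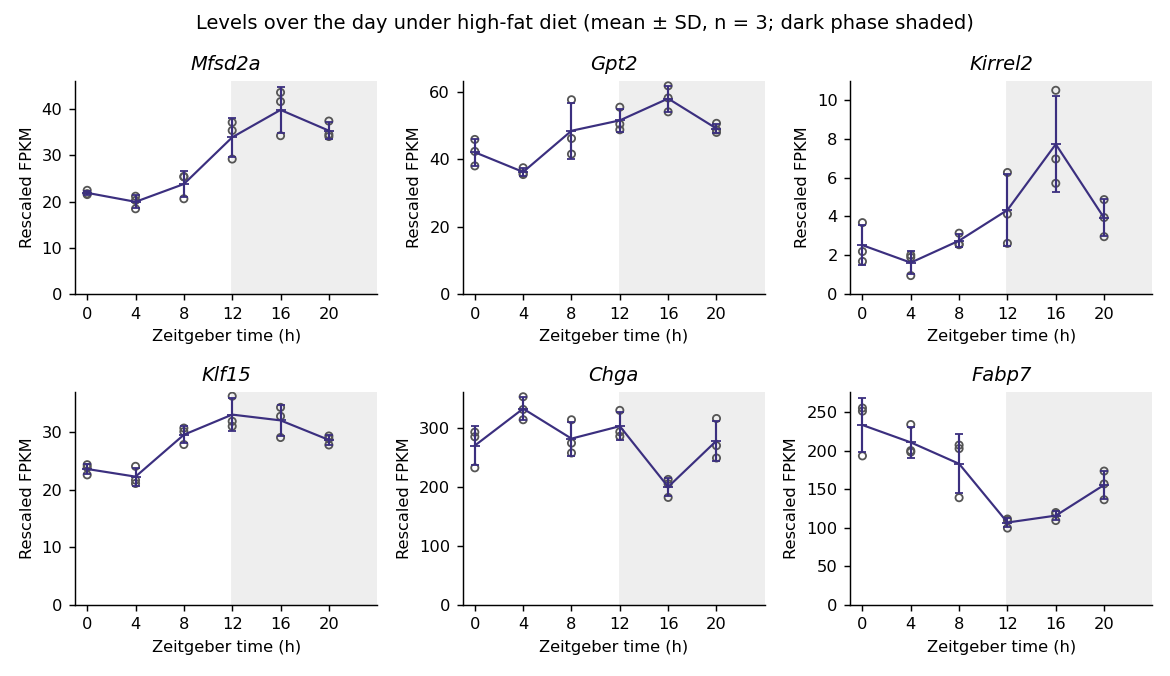
Levels over the day under high-fat diet for 6 of the leading genes, in rescaled FPKM against ZT in hours. Circles are libraries, the line joins the means and bars are the SD of 3 libraries, with the hours from ZT 12 shaded as dark on the assumption that lights went off then. Mfsd2a, Gpt2 and Kirrel2 were highest at ZT 16 and lowest at ZT 4, Chga was lowest at ZT 16, and Fabp7 was lowest at ZT 12.

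The core clock, the transcriptional loop that keeps time, held 26 genes, all of them tested, and 0 were called. At an unadjusted p under 0.05 the list had 2 higher and 2 lower, beside 4.21% and 8.04% of all genes. The count depended on single libraries: it was 7 higher and 1 lower without the first ZT 16 library, and 0 higher and 3 lower without the third. Nr1d1, the nuclear receptor that represses Arntl, had 70.4, 75.0 and 78.0 at ZT 16, against 111, 97.4 and 96.4 at ZT 4, log2 change -0.44 ± 0.10 (SE, limma adjusted p = 0.168). It was the 1 clock gene whose libraries did not overlap between the times. Ciart, another repressor, had a log2 change of -0.41, and the repressor Cry1 and the output factor Tef had 0.26 and 0.30 (limma adjusted p from 0.366 to 0.372). The period gene Per2 had 10.7, 15.5 and 18.4 at ZT 16, against 12.0, 10.9 and 10.50 at ZT 4, with the third ZT 16 library highest. Arntl had a log2 change of -0.03, Dbp -0.11, Per1 0.15 and Clock 0.23, and the other 17 clock genes lay between -0.20 and 0.76, the highest being Npas2. Its level of 21.1 in the third ZT 16 library stood against 5.69 to 9.33 in the other 5.

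Of 28 transcripts known to respond to glucocorticoids, 27 were tested and 0 were called. At an unadjusted p under 0.05, 13 were higher and 0 lower, beside 4.21% and 8.04% of all genes. A positive log2 change was found for 24, and the median was 0.35. Like the other lists, this one was chosen with earlier results of these data known, which limits what its counts show. Plin4, a coat protein of lipid droplets, had 5.40, 8.49 and 7.14 at ZT 16, against 1.93, 1.75 and 1.93 at ZT 4, log2 change 1.46 ± 0.34 (SE, limma adjusted p = 0.167). Pdk4, the kinase that turns off pyruvate dehydrogenase, had 9.13, 10.99 and 11.7 at ZT 16, against 6.80, 5.60 and 6.28 at ZT 4 (log2 change 0.68, limma adjusted p = 0.172). Hif3a, a hypoxia-inducible factor, had 2.59, 5.34 and 3.76 at ZT 16, against 1.64, 1.34 and 1.25 at ZT 4 (log2 change 0.99, limma adjusted p = 0.212). Klf15 completed the 4 of smallest p. Named after their values were seen, the kinase Sgk1 had 39.6, 42.7 and 39.5 at ZT 16, against 19.5, 23.4 and 29.4 at ZT 4, and Fkbp5, a chaperone of the glucocorticoid receptor, 23.5, 23.2 and 31.5, against 19.1, 19.99 and 21.7. In 15 of the 27 all ZT 16 libraries lay above all ZT 4 libraries, beside 7.6% of all genes. The receptor itself, Nr3c1, had a log2 change of 0.17 with overlapping libraries. With any 1 of the 6 libraries left out 9 to 12 were higher and 0 lower, and with both replicate 3 libraries left out 10 and 0.

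All 15 astrocyte markers were tested and 0 were called. At an unadjusted p under 0.05, 9 were higher and 0 lower, beside 4.21% and 8.04% of all genes. The 15 markers all had positive log2 changes, with a median of 0.40. They summed to 6142, 6265 and 6135 at ZT 16, against 4911, 3917 and 3738 at ZT 4, and the other 12 high-fat libraries ranged from 4708 to 6675, so the second and the third ZT 4 libraries were the lowest of the 18. Glul, glutamine synthetase, had 2232, 2267 and 2403 at ZT 16, against 1573, 1352 and 1111 at ZT 4, log2 change 0.79 ± 0.16 (SE, limma adjusted p = 0.116). The glutamate transporter Slc1a3 had 705, 716 and 591 at ZT 16, against 587, 425 and 390 at ZT 4, and Sox9, a transcription factor of astrocytes, 28.5, 29.5 and 25.3, against 24.2, 18.01 and 15.2. The filament protein Gfap had 198, 170 and 217 at ZT 16, against 190, 114 and 234 at ZT 4, with overlap, and Agt, which codes for angiotensinogen, had a log2 change of 0.07. Fabp7, also a transcript of astrocytes, is not on this list and went the other way, with a log2 change of -0.86. In bulk tissue, fewer cells of a type and less RNA per cell cannot be told apart. Gjb6, a connexin of astrocytes, stands on both this list and the glucocorticoid list, and Fgfr3 is also among the 12 leading higher genes. The part of astrocyte RNA in the values of Klf15, Fam107a, Fgfr3 and the glucocorticoid list was not tested. When 1 library was left out in turn, 6 to 11 of the 15 were higher and 0 lower, with 6 without the second ZT 16, the second ZT 4 or the third ZT 4 library. Leaving out both replicate 3 libraries gave 6 and 0, with all 15 positive.

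Of 15 pan-neuronal markers, 0 were called, 1 was higher and 5 were lower at an unadjusted p under 0.05, with a median log2 change of -0.32, and they summed to 5934, 5926 and 6396 at ZT 16, against 7286, 7507 and 7155 at ZT 4. Syp, the synaptic vesicle protein synaptophysin, had 1061, 992 and 963 at ZT 16, against 1276, 1312 and 1232 at ZT 4, log2 change -0.34 ± 0.08 (SE, limma adjusted p = 0.172). Stmn2, a microtubule regulator of neurons, had 450.1, 396 and 303 at ZT 16, against 527, 538 and 581 at ZT 4. Gad1, an enzyme of GABA synthesis, had 300.3, 311 and 346 at ZT 16, against 486, 471 and 411 at ZT 4, while Map2, a dendritic microtubule protein, was the 1 higher marker (log2 change 0.46). Chga and Vamp1 are transcripts of the same kind of cell, and the part of the neuronal share in their values was not tested. Leaving out both replicate 3 libraries gave 0 higher and 8 lower, and leaving out single ones 5 to 7 lower.

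**Figure D3:**
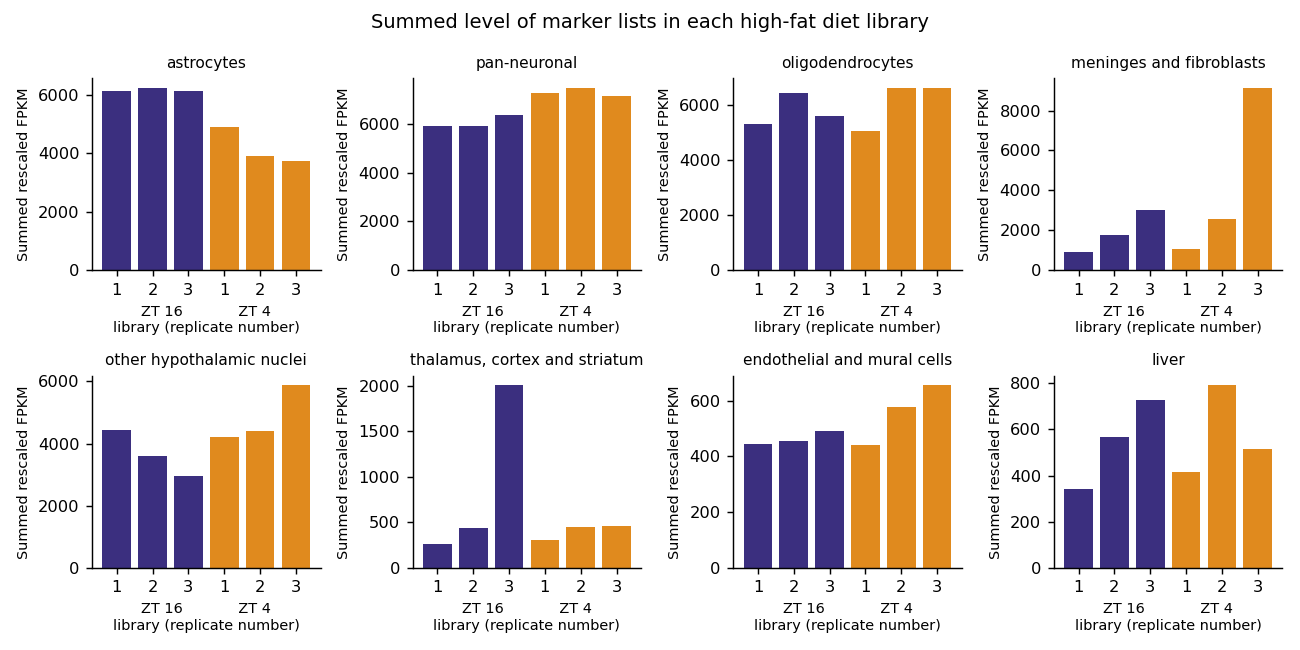
Summed level of 8 marker lists in each of the 6 high-fat libraries, in rescaled FPKM, with 1 bar for each library. The astrocyte list was higher and the pan-neuronal list lower in every ZT 16 library than in any ZT 4 library. The third ZT 16 library stood apart for thalamus, cortex and striatum (2004) and the third ZT 4 library for meninges and fibroblasts (9153).

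Other cell types gave smaller or less even differences. Oligodendrocyte markers had a median log2 change of -0.25, with 0 higher and 3 lower of 15 at an unadjusted p under 0.05, the lowest being Opalin, Cnp and Mog. The myelin genes Mbp and Mobp had positive log2 changes of 0.14 and 0.20, with overlapping libraries. Microglial markers were positive in 15 of 15, with a median of 0.19 and 0 at an unadjusted p under 0.05. With values as deposited 11 of 15 were positive, without the first ZT 4 library 12, and without the third ZT 16 library 14, with a median of 0.08. Meningeal and fibroblast markers were negative in 15 of 15, with a median of -0.85 and 0 at an unadjusted p under 0.05. Their summed level was 899, 1742 and 2998 at ZT 16, against 1065, 2538 and 9153 at ZT 4, and the median was -0.18 without the third ZT 4 library and -0.49 without both of replicate 3. Without the first ZT 4 library 7 of the 15 were lower at an unadjusted p under 0.05. The medians of the remaining cell type lists were 0.64 for thalamus, cortex and striatum, 0.55 for liver, 0.05 for ependymal cells and tanycytes, 0.03 for blood, -0.00 for oligodendrocyte precursors, -0.14 for choroid plexus, -0.19 for other hypothalamic nuclei and -0.81 for pituitary, and each had 0 or 1 member at an unadjusted p under 0.05. Single libraries turned the sign of several of these medians, among them thalamus, cortex and striatum (-0.20 without the third ZT 16 library, with 4 of 14 positive where 10 were with it) and pituitary (0.30 without the third ZT 4 library).

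Of 22 SCN peptides, receptors and transcription factors 0 were called, 0 were higher and 4 lower at an unadjusted p under 0.05, and the median log2 change was -0.43. Rgs16, a regulator of G protein signalling that times cyclic AMP in the SCN, had 31.4, 28.3 and 22.9 at ZT 16, against 68.9, 42.0 and 76.2 at ZT 4, log2 change -1.12 ± 0.32 (SE, limma adjusted p = 0.212). Rasl11b, a small GTPase, Avpr1a, a vasopressin receptor, and Calb2, the calcium-binding protein calretinin, had log2 changes of -0.62, -0.52 and -0.72. Six6, a transcription factor needed for the SCN to form, had 2.29, 1.89 and 2.52 at ZT 16, against 7.44, 3.28 and 6.78 at ZT 4, and the peptide Nms had 4.39, 3.11 and 2.69, against 9.69, 4.85 and 5.13. Avp, the vasopressin gene of SCN and neighbouring neurons, had 971, 1010.3 and 723 at ZT 16, against 1336, 1361 and 4301 at ZT 4, with the third ZT 4 library far above the rest. A fit with scores of meninges and fibroblasts, other hypothalamic nuclei and oligodendrocytes as covariates called 0 of all genes tested. How much of each value here came from such RNA was not tested. With both replicate 3 libraries left out 1 of the 22 was lower at an unadjusted p under 0.05, with a median of -0.24, and 2 were lower without the third ZT 16 or the first ZT 4 library alone.

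Light- and activity-induced genes, the immediate early genes that follow a light pulse or firing, had 0 of 22 called and 0 at an unadjusted p under 0.05. Homer1, a synaptic scaffold, had 13.8, 19.4 and 61.9 at ZT 16, against 14.5, 13.2 and 13.4 at ZT 4, and the transcription factor Egr4 1.54, 3.90 and 16.7, against 1.79, 2.72 and 1.999. Fosb had 0.509, 1.56 and 4.82 at ZT 16, against 0.975, 1.16 and 0.625 at ZT 4. The third ZT 16 library, which also held the high sum of thalamic, cortical and striatal markers, was the highest for each of these 3. The median log2 change of the list was 0.28, and it was -0.01 without that library. Without the first ZT 16 library, the lowest for each of these 3 at that time, 10 of the 22 were higher at an unadjusted p under 0.05. The kinase Sik1, the fourth by p, had a log2 change of -0.28.

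Feeding peptides and hormone receptors likewise had 0 of 21 called and 0 at an unadjusted p under 0.05. Pmch, a peptide of the lateral hypothalamus, had 3.69, 17.1 and 209 at ZT 16, against 12.8, 406 and 843 at ZT 4, and Hcrt, the orexin gene of the same area, 1.92, 7.17 and 67.9, against 3.07, 211 and 281. For both, the libraries of each time lay far apart, and those of the 2 times overlapped. Npy2r, a receptor for neuropeptide Y, and Nts, the neurotensin gene, had log2 changes of -0.32 and 0.49, each with overlap.

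In the list of fatty acid binding, oxidation and PPAR targets, 31 of 32 were tested, 0 were called, and 8 were higher and 1 lower at an unadjusted p under 0.05, with 16 positive and 15 negative and a median log2 change of 0.03. Under chow the list had 3 higher and 5 lower, with a median of -0.05. Fabp7 was the lower one under high-fat diet. Plin4 and Pdk4, also on the glucocorticoid list, led the higher ones, and Ppara, the nuclear receptor that drives fatty acid oxidation, had 3.21, 3.38 and 4.02 at ZT 16, against 2.62, 1.69 and 2.06 at ZT 4 (log2 change 0.55, limma adjusted p = 0.299). Named after their values were seen, Cpt1a, which admits long-chain fatty acids to mitochondria, had 28.8, 28.1 and 28.6 at ZT 16, against 22.8, 20.6 and 20.7 at ZT 4, and the carnitine carrier Slc25a20 had a log2 change of 0.25. Between 3 and 7 were higher and 1 lower with single libraries left out, with 3 without the first ZT 16 or the second ZT 4 library. For cholesterol and fatty acid synthesis, of 29 tested 0 were called, 1 was higher and 5 were lower at an unadjusted p under 0.05, and 21 were negative, with a median of -0.16. Fdft1, squalene synthase, had 70.2, 59.3 and 53.7 at ZT 16, against 78.7, 78.7 and 77.6 at ZT 4 (log2 change -0.36, limma adjusted p = 0.176). Insig1, which holds back the SREBP factors, had a log2 change of -0.35, Fdps -0.32 and Msmo1 -0.23, and the number lower was 2 with both replicate 3 libraries left out and 8 without the first ZT 16 library.

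Of 21 genes of glycolysis and glucose transport 0 were called, and 1 was higher and 7 were lower at an unadjusted p under 0.05. Their median log2 change was -0.14, with 18 negative, beside a median of -0.03 over all genes. Pgk1, phosphoglycerate kinase, had 509, 491 and 488 at ZT 16, against 611, 613 and 638 at ZT 4, log2 change -0.32 ± 0.08 (SE, limma adjusted p = 0.172). Tpi1, triose phosphate isomerase, had 748, 714 and 720.3 at ZT 16, against 879.7, 925 and 949.9 at ZT 4, and Pgam1, phosphoglycerate mutase, and the neuronal enolase Eno2 had log2 changes of -0.29 and -0.36. Eno2 is also a pan-neuronal marker. Aldoc, the aldolase found in astrocytes, was the 1 higher gene, with 1166, 1143 and 1084 at ZT 16, against 989, 905 and 909 at ZT 4. Eno2 and Aldoc, which are different enzymes, changed in the directions of the neuronal and the astrocyte marker lists, whose part in these values was not tested. With both replicate 3 libraries left out 0 were higher and 7 lower, and 5 to 8 were lower with single libraries left out.

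Of 35 nuclear-encoded genes of oxidative phosphorylation 0 were called, 1 was higher and 5 were lower at an unadjusted p under 0.05, and the median log2 change was -0.08. With quantile normalization 0 were higher and 2 lower, with a median of -0.015 beside -0.027 over all genes, and with median-of-ratios scaling likewise 0 and 2. Uqcrc2, a core subunit of complex III, had 279, 250 and 243 at ZT 16, against 311, 303 and 321 at ZT 4 (log2 change -0.28, limma adjusted p = 0.197), and Ndufs1 of complex I and Atp5a1 of the ATP synthase had -0.21 and -0.20. Cox4i1 of complex IV was the higher one, at 0.32. The number lower was 3 without the second ZT 16 library or any 1 of the ZT 4 libraries, and 2 without both of replicate 3.

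Genes of the amino acid response and of serine synthesis had members at an unadjusted p under 0.05 in both directions. Of 23 tested 0 were called, 3 were higher and 8 lower at that p, beside 4.21% and 8.04% of all genes. Gpt2 and Asns, described above, lay on opposite sides, and Got1, the cytosolic aspartate aminotransferase, had 346, 339 and 353 at ZT 16, against 474, 507 and 448 at ZT 4, log2 change -0.46 ± 0.10 (SE, limma adjusted p = 0.127). Gars, glycyl-tRNA synthetase, had 94.8, 88.9 and 94.1 at ZT 16, against 122, 133 and 127 at ZT 4. Atf4, the transcription factor of this response, had a log2 change of -0.24, with 147, 148 and 152 at ZT 16, against 153, 168 and 211 at ZT 4. With both replicate 3 libraries left out 1 was higher and 4 lower, and with the second or the third ZT 16 library or the second ZT 4 library left out 2 and 5.

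Heat shock chaperones had 0 of 24 called, with 2 higher and 5 lower at an unadjusted p under 0.05 and a median log2 change of -0.12. The inducible Hspa1b had 8.19, 9.82 and 6.91 at ZT 16, against 5.87, 6.01 and 4.42 at ZT 4, log2 change 0.53 ± 0.16 (SE, limma adjusted p = 0.230). Its neighbour Hspa1a is nearly identical, so reads of the pair may be shared, and it had a log2 change of 0.29. The mitochondrial chaperone Hspa9 had 181, 183 and 168 at ZT 16, against 225, 243 and 227 at ZT 4 (log2 change -0.38, limma adjusted p = 0.212), and the abundant Hsp90aa1 had -0.36. Dnaja4, a co-chaperone, had 0.29. The number lower was 1 without the third ZT 16 or the second ZT 4 library, and likewise without both of replicate 3. ER chaperones and the unfolded protein response had 0 of 24 called, 1 higher (Creld2, 0.28) and 1 lower (Atf4), with a median of -0.02, and the oxidoreductases Pdia3 and Pdia4 had -0.24 and 0.22. Of 5 cold-inducible RNA-binding proteins 0 were called. Cirbp had 176, 157 and 120.4 at ZT 16, against 199, 220 and 182 at ZT 4, log2 change -0.42 ± 0.12 (SE, limma adjusted p = 0.220), the splicing factors Sfpq and Srsf5 had 0.35 and -0.25, and Rbm3 0.03.

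Inflammation and interferon genes had 0 of 20 called, 0 higher and 2 lower at an unadjusted p under 0.05, and 5 of the 25 listed, Tnf, Il1b, Il6, Ccl2 and Lcn2, were below the minimum level. H2-D1, a class I histocompatibility gene, and Bst2, an interferon-induced membrane protein, had log2 changes of -0.42 and -0.58. Serpina3n, an acute-phase inhibitor, had 50.9, 46.3 and 27.6 at ZT 16, against 47.2, 43.1 and 68.8 at ZT 4, and Ifit3, another interferon-induced gene, had a log2 change of 0.46. The number lower was 0 without the third ZT 4 library, the highest for H2-D1 and Serpina3n, and 3 without the first.

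Cytosolic ribosomal protein genes, a list kept as a sign of RNA quality, were positive in 32 of 33, beside 45.0% of all genes. Their median log2 change was 0.21. By limma 0 were called. At an unadjusted p under 0.05, 4 were higher (Rps24, Rpl5, Rps2 and Rpl35) and 0 lower, beside 4.21% and 8.04% of all genes. In 20 all ZT 16 libraries lay above all ZT 4 libraries, beside 7.6% of all genes. Their summed level was 45339, 45238 and 44796 at ZT 16, against 39381, 39322 and 36327 at ZT 4, and the other 12 high-fat libraries ranged more widely, from 23752 to 52454. The count depended on the fit: 18 were higher with the 6 libraries alone, 7 with quantile normalization, 1 with tissue scores as covariates, and 0 with values as deposited, where 27 of 33 were positive. Under chow the median was -0.09, with 0 higher and 0 lower.

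**Figure D4:**
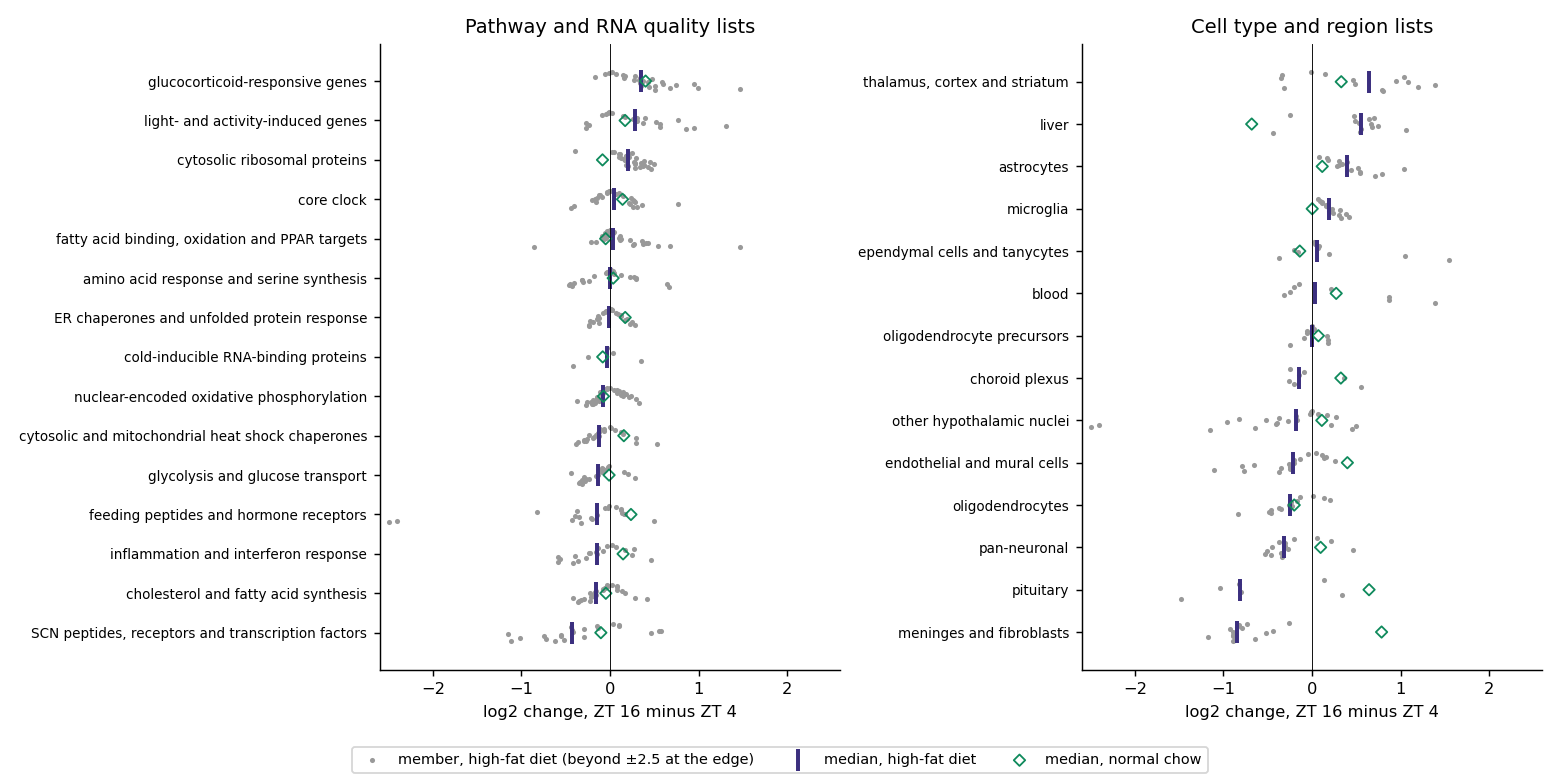
Log2 change between ZT 16 and ZT 4 for the members of 15 pathway and RNA quality lists (left) and 14 cell type and region lists (right). Grey points are members under high-fat diet, the vertical bar is their median, and the open diamond is the median of the same members under normal chow. Glucocorticoid-responsive genes had medians of 0.35 under high-fat diet and 0.40 under chow, and astrocytes 0.40 and 0.11.

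The same contrast under normal chow gives levels and log2 changes from libraries not used to choose the genes. The spread behind the chow p-values, however, was estimated from all 36 libraries, the 18 high-fat ones included. Choosing genes by their p under one diet therefore favours small p-values under the other, which limits the counts at an unadjusted p below. Of the 24 leading genes, 23 had the same sign under chow, with Asns the exception. The same sign was found for 62.1% of all genes, and, among genes with an unadjusted p under 0.05 under high-fat diet, for 81.9% of the higher and 74.7% of the lower ones. All 12 higher genes kept their sign, and 11 of them had an unadjusted p under 0.05 there, beside 7.03% of all genes that were higher under chow at that p, where Ttyh1 did not. Of the 12 lower genes 11 kept their sign and 4 had an unadjusted p under 0.05, beside 3.52% of all genes (10.6% in both directions). Mfsd2a had 40.8, 33.2 and 31.8 at ZT 16 under chow, against 19.8, 21.6 and 21.4 at ZT 4, log2 change 0.72 ± 0.11 (SE, limma adjusted p = 0.00197). It was the 1 gene called both under chow and in the main high-fat fit. Fabp7 had 114, 68.0 and 94.4 at ZT 16 under chow, against 326, 325 and 304 at ZT 4, log2 change -1.81 ± 0.17 (SE, limma adjusted p = 3.98e-07). Opalin, Kirrel2 and Klf15 were also called under chow, with log2 changes of -1.19, 1.23 and 0.38. In all, 32 of 15173 genes were called under chow (0.211%), 12 of them higher (0.0791%) and 20 lower (0.132%). Of these, 31 had the same sign under high-fat diet, and 24 had an unadjusted p under 0.05 there. The chow calls came from a fit of all 36 libraries and the main high-fat call from 18, so the numbers called are not on a like footing. With all 36 libraries in the fit 152 genes were called under high-fat diet, Fabp7, Opalin, Kirrel2 and Klf15 among them.

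Whether the change from ZT 4 to ZT 16 differed between the diets was tested directly, over all 36 libraries. By limma 0 of 15173 genes were called (smallest adjusted p = 0.765), and 986 had an unadjusted p under 0.05 (6.5%), 208 with a higher log2 change under high-fat diet (1.37%) and 778 with a lower one (5.13%). The gene of smallest p was Chga. Its log2 change was -0.73 under high-fat diet and -0.05 under chow, where it had 289.6, 326 and 279 at ZT 16, against 273, 324 and 329 at ZT 4. The difference of -0.68 had a 95% interval of -0.98 to -0.39. For Fabp7 the difference was 0.95 (0.47 to 1.43), its change being smaller in size under high-fat diet, and for Mfsd2a it was 0.24 (-0.08 to 0.56). Unadjusted p-values under 0.05 for the difference were found in 3 of the 12 higher genes (Gpt2, Ttyh1 and Sdc4) and in 9 of the 12 lower ones. Among all genes at an unadjusted p under 0.05 under high-fat diet, they were found in 96 of 635 higher and 402 of 1215 lower ones. The high-fat change is part of the difference, so choosing genes by it favours such counts. The change was smaller in size under chow in 22 of the 24, which the choice of genes by their p under high-fat diet favours. The values of each diet come in a table of their own, so diet and any difference in the making of the tables cannot be told apart.

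**Figure D5:**
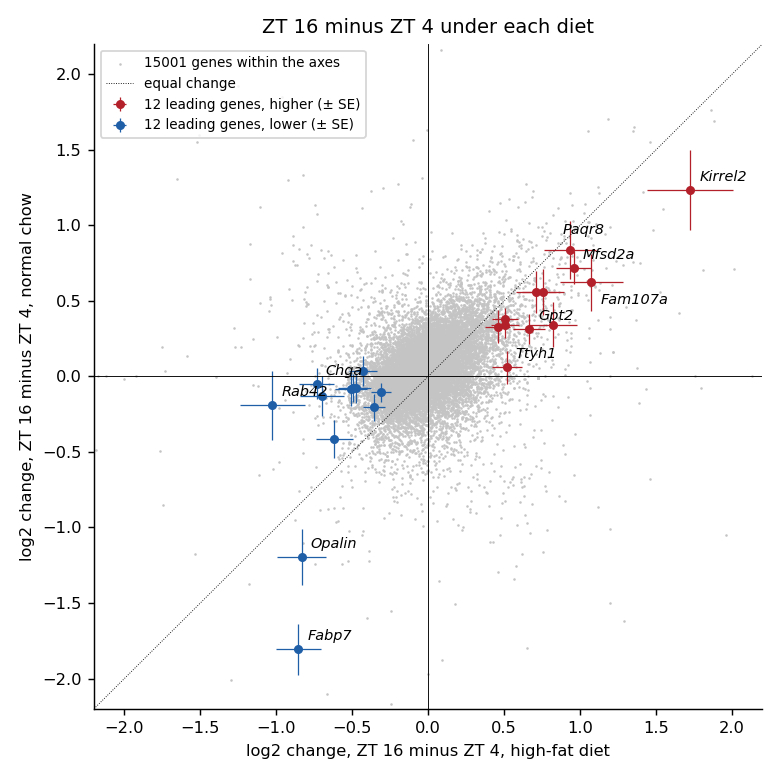
Log2 change between ZT 16 and ZT 4 under high-fat diet (horizontal) and under normal chow (vertical), with a grey point for each gene tested in both within the axes. Coloured points are the 12 higher and 12 lower leading genes of the high-fat contrast with their SE, and the dotted line marks an equal change. The higher genes lie above 0 on both axes, while Chga and most other lower genes lie near 0 on the vertical axis and Fabp7 and Opalin well below it.

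Glucocorticoid-responsive genes had 17 higher and 1 lower at an unadjusted p under 0.05 under chow, with a median of 0.40, and the difference between the diets had an unadjusted p under 0.05 for 2 of the 27, beside 6.5% of all genes. Astrocyte markers had 3 higher and 0 lower under chow, and pan-neuronal markers 1 higher and 0 lower, with medians of 0.11 and 0.10, and the difference between the diets had an unadjusted p under 0.05 for 4 and 6 of the 15 in each. Glycolysis had a median of -0.01 under chow, with 1 higher and 0 lower, and 6 of the 21 at that p for the difference. ER chaperones had 9 higher and 0 lower under chow, with a median of 0.17 and 6 of the 24 for the difference, and amino acid response genes 3 higher and 0 lower, with a median of 0.04 and 9 of the 23. Heat shock chaperones had a median of 0.16 under chow, with 9 higher and 0 lower and 4 called, and 16 of the 24 had an unadjusted p under 0.05 for the difference, beside 6.5% of all genes. Hspa1b had a log2 change of 0.53 under high-fat diet and 1.18 under chow (limma adjusted p under chow = 5.28e-04), and Hspa8, a constitutive chaperone named after its values were seen, -0.30 under high-fat diet and 0.10 under chow. Meningeal and fibroblast markers had medians of -0.85 under high-fat diet and 0.78 under chow, with 7 of the 15 at an unadjusted p under 0.05 for the difference. None of the members named here passed the test of a difference over all genes. The counts for the difference within lists were not repeated with libraries left out.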

How the data were processed

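RNA was isolated with the RNeasy Micro Kit from fresh, snap-frozen tissue and made into Illumina TruSeq stranded mRNA libraries, per the labels' protocols. Reads were processed with Trimmomatic, TopHat and Cufflinks against mm10, per the submitters' processing notes, which give no versions. The deposited values are taken as FPKM, the usual Cufflinks output, since no header names the unit. Reads per library are not given in the sources used here, so no counting intervals are given. No mitochondrial genes are among the rows.

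Each deposited FPKM column was rescaled to sum to 1000000, rows with a mean of at least 1 over the libraries of the fit were kept, and log2(value + 1) was fitted with limma 3.58.1 (R 4.3.3, mean-variance trend). The main comparison used the 18 high-fat libraries as 6 time-point means. The chow contrast and the diet difference used all 36 libraries as 12 means. Adjusted p-values are Benjamini-Hochberg over all genes tested, and a gene is called at under 0.05. The fit was tested on simulated data. Named genes were the called genes, filled to 12 per direction by smallest p (leaving out clone or model-number symbols, small RNAs and symbols on several rows), all core clock genes, and the 4 of smallest p in every other pathway list. Cell type examples, and genes said to be named after their values were seen, fall outside that rule. The members and lists were chosen with earlier results of these data known. Gene coordinates are from GENCODE M21.

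Replicate numbers recur at each time. Samples of the same number deviated together with correlations of 0.38, -0.05 and 0.14, so the numbers were not taken as pairs. Alternatives covered scaling, pseudocount, filter, the libraries in the fit, tissue scores, robust fitting and leaving out libraries. The tissue scores were mean standardized levels of the marker lists for meninges and fibroblasts, other hypothalamic nuclei and oligodendrocytes. No astrocyte or neuronal score was among them.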

Additional observations from a re-analysis of the deposited data

How the results depend on the processing

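Alternatives were fitted with limma. The number of genes called, 1 as reported, was 2 with the 6 libraries alone, 152 with all 36, 0 with values as deposited, 4 with median-of-ratios scaling, 4 with quantile normalization, 0 once 3 tissue scores entered as covariates, and between 0 and 1 as single libraries were left out. It was 1 with a pseudocount of 0.1 or 5, no filter, a minimum mean of 5, robust fitting, and both replicate 3 libraries left out, an alternative chosen after seeing the data. Mfsd2a had a log2 change of 0.96 (adjusted p = 0.233) with the 6 libraries alone, which leave fewer residual degrees of freedom, 0.80 (0.0620) as deposited and 0.97 (0.113) with tissue scores. Leaving out libraries gave 0.89 to 1.06. The cause of the other losses was not tested. Under median-of-ratios scaling Gpt2, Kirrel2 and Paqr8 also passed, under quantile normalization Gpt2, Kirrel2 and Chga, and with all 36 libraries all 24 leading genes. Values as deposited moved the median log2 change of all genes to -0.11, where it was -0.03. With the replicate number as a block, 1 gene was called (Mfsd2a, 0.96, adjusted p = 0.0273), and the block changed no call, the diet difference included. Of the 100 named genes, 14 took the other sign in at least 1 alternative, none of them among the 24 leading genes and none past the test. As deposited, the log2 change was -0.045 for Nr1d2, -0.010 for Rorb, -0.088 for Cry2 and -0.079 for Rbm3. Median-of-ratios scaling gave 0.0017 for Arntl and 0.017 for Rora, and tissue scores gave -0.16 for Rorb, 0.065 for Bhlhe41, 0.014 for Arntl and -0.066 for Nts. With both replicate 3 libraries left out it was -0.050 for Per1, -0.080 for Rorb, -0.12 for Cry2, -0.075 for Fosb and 0.11 for Serpina3n. Leaving out single libraries gave -0.030 to 0.47 for Usp2, -0.054 to 0.33 for Per1, -0.34 to 0.042 for Dbp, -0.30 to 0.054 for Fbxl21, -0.076 to 0.32 for Rorb, -0.070 to 0.022 for Arntl, -0.12 to 0.14 for Cry2, -0.24 to 0.17 for Rora and -0.13 to 0.14 for Rbm3. For the diet difference, 1 gene, a small RNA, was called with the 12 libraries of both times and 0 in the other alternatives run, with each library left out in turn giving 0 to 0. The share of genes at an unadjusted p under 0.05 for the difference, 6.5% as reported, moved with single libraries. It was 3.08% without the second chow ZT 16 library, 8.45% without the first, and 10.5% with values as deposited. Library weights were not run, since they did not converge. The number of reads behind low values is unknown, which limits low genes such as Kirrel2, Rab42 and Hif3a.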
